A study of Mus musculus with 56 samples.

Results

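The 8 genes described here are chemokines that activated T cells can make: Ccl1, Ccl3, Ccl4, Ccl5, Ccl20, Ccl22, Xcl1 and Cxcl10. They were chosen by name, as a family, from the 47937 genes listed in each of 2 tables of RNA-seq read counts, and all 8 passed the low-count filter in both tables. The study asked what polyamine synthesis and the hypusine it feeds do for helper T cell identity. CD4+ T cells (naive, per the study's methods), enriched by negative selection from the spleen and lymph nodes of C57BL/6 mice aged 6 to 10 weeks, were activated through CD3 and CD28 and grown for 4 days under TH1, TH2, TH17 or Treg conditions. The first count file (the Odc set) covers 31 libraries: 16 from WT cells and 15 labelled ODC KO, with 4 per subset and only 3 for TH2 labelled ODC KO. The second (the Dohh set) covers 24: 12 from WT cells and 12 labelled DOHH KO, at 3 per subset.

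Both deletions used floxed alleles (Odc flox/flox or Dohh flox/flox) crossed to CD4-Cre, and the WT mice were littermates without Cre. The Cd4 promoter drives Cre from the stage at which thymocytes carry both CD4 and CD8, so CD8 lineage cells carry the deletion as well. Ornithine decarboxylase (ODC) makes putrescine, the first polyamine. Deoxyhypusine hydroxylase (DOHH) completes hypusine, an amino acid that is made from spermidine and is known in the translation factor eIF5A. TH1 cultures received IL-12, IL-2 and anti-IL-4. TH2 cultures received IL-4, IL-2 and anti-IFN-γ. TH17 cultures received IL-6, TGF-β, IL-1β, anti-IFN-γ and anti-IL-4. Treg cultures received TGF-β, IL-2, anti-IFN-γ and anti-IL-4. IL-2 was also part of the activation of all cultures, TH17 included.

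Chemokines are small secreted proteins that bind G protein-coupled receptors on other cells and direct their migration. Activated T cells make a set of them within hours of receptor signalling, and each helper subset is known for a different mix. Ccl3, Ccl4 and Ccl5 draw effector T cells and monocytes. Xcl1 binds XCR1 on cross-presenting dendritic cells, Ccl1 binds CCR8, Ccl22 binds CCR4 and draws TH2 and regulatory T cells, Ccl20 binds CCR6 and is a product of TH17 cells, and Cxcl10 binds CXCR3 and is induced by IFN-γ.

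In the mm10 genome (GENCODE vM21 annotation, GRCm38) Ccl3 (chr11:83647844-83649355, minus strand) and Ccl4 (chr11:83662584-83664683, plus strand) start 13229 bases apart and point away from each other. Ccl5 (chr11:83525778-83530518, minus strand) lies in the same region, and the gene model of Ccl1 (chr11:82176657-82305690, minus strand) lies before them in chromosome coordinates. Ccl20 (chr1:83116766-83119167, plus strand) and Xcl1 (chr1:164931644-164935527, minus strand) are on chromosome 1. Ccl22 is at chr8:94745590-94751699 on the plus strand, and Cxcl10 at chr5:92346638-92348889 on the minus strand. Of the exon bases, 18.7% of Xcl1 and 5.91% of Cxcl10 overlap a gene on the opposite strand (Gm20743 and Art3). The strand setting of the counting is not given in the sources used here, so reads of these partners cannot be told apart there.

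Since members rose together in many comparisons, the stretches before their starts are shown for the 4 members in which a motif was found, from 250 to 51 bases before the start that RefSeq gives, 5′ to 3′ on the strand of the gene (GRCm38.p6). For Ccl1 this start lies inside the longer GENCODE model given above, far from the start of that model. Capitals mark matches to the motifs named after them.
Cxcl10 (chr5:92348940-92349139, minus strand): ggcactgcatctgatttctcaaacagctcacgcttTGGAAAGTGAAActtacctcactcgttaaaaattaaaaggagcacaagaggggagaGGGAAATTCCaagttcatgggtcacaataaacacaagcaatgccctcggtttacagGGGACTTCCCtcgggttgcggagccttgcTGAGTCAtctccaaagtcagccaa
Ccl20 (chr1:83116516-83116715, plus strand): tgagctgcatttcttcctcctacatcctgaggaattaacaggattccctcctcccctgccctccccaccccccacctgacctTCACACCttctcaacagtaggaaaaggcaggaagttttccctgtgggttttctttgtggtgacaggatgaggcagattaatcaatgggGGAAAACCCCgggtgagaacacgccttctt
Xcl1 (chr1:164935573-164935772, minus strand): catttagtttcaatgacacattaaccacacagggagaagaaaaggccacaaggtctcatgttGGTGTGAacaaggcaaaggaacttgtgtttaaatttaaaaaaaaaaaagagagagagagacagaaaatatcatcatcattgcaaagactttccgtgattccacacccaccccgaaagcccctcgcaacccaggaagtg
Ccl1 (chr11:82179863-82180062, minus strand): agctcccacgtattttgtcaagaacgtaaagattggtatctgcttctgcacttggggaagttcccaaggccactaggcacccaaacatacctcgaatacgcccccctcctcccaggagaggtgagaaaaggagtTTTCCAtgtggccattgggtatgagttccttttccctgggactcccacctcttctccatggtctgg

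Windows of 300 bases, 250 before the start to 50 after it, were searched on both strands for 7 motifs, and 6 of the 8 members had a window in the RefSeq table. Positions are those of the first base of a match, −1 being the base before the start. The Cxcl10 window held the NF-kB consensus at −159 and −103 and the AP-1 motif TGANTCA at −74. It also held the NFAT motif TGGAAA at −215, which overlaps the interferon response (ISRE) core, GAAA and GAAA with any 2 bases between them, at −213. Ccl20 held the NF-kB consensus at −80 and the T-box motif GGTGTGA at −168, both on the opposite strand. Xcl1 held the T-box motif at −188, and Ccl1 the NFAT motif at −116 on the opposite strand. Neither the STAT motif TTCNNNGAA (GAS) nor TATAAA was found in these 4 windows, and none of the 7 motifs was found in those of Ccl3 and Ccl22. Of 32851 windows of the same length, 4.51% held the NF-kB consensus, 7.81% AP-1, 3.98% the T-box motif, 21.4% the NFAT motif, 3.44% the ISRE core, 8.3% the GAS motif and 13.6% TATAAA. A match describes letters in the window, not a bound site.

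Reads counted in genes came to 5905374 to 9145214 per Odc library and 6572148 to 12576933 per Dohh library. Levels are given as CPM, counts per 1000000 reads counted in genes, and 3 counts, the floor used for a level of 0, corresponded to at most 0.499 CPM. Intervals and floors cover counting error only. The transcripts of the targeted genes did not follow the labels: Odc1 was not called in any subset of the Odc set (log2 fold change −0.40 to 0.26), and Dohh was called higher in 3 of 4 subsets of the Dohh set (log2 fold changes 1.43, 1.10 and 1.15 in TH1, TH2 and Treg; 0.41 in TH17). Dohh was also called higher in TH1, TH2 and Treg of the Odc set (log2 fold changes 1.26, 1.17 and 1.11), and not in TH17 (0.63). Counts cover all exons of a gene, so the deleted exons were not seen on their own. Groups are therefore called by their labels throughout. WT libraries carried the markers of their subsets in the Odc set, with mean levels of 930.0 CPM of Ifng in TH1, 403 of Il13 in TH2, 1453 of Il17f in TH17 and 478 of Foxp3 in Treg. The same means in the Dohh set were 235, 223, 223 and 576 CPM. Libraries labelled DOHH KO stood apart in the marker that the label CD4+ rests on: mean Cd4 fell from 842 to 36.1 CPM in TH1 and from 941 to 37.6 in Treg, while Cd3e was 246 and 201 CPM in TH1. Of the 10 markers of CD4 T cell identity on the list used here, all were detected in every library. Cd4, Cd5 and Trac were called lower and Thy1 higher in each subset of the Dohh set, and Cd4, Cd3d and Cd3g were called lower in TH2 of the Odc set, where the other subsets had no such call. In the Odc set, WT replicate 4 and ODC KO replicate 1 stood nearest to the other genotype in several members. Values without both are given beside some results, but since these libraries were chosen from the same members, a larger difference without them follows in part from the choice.

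Across the 8 comparisons of libraries labelled KO with WT, 49 of 64 member values were called higher, 1 was called lower and 14 were not called. A call needed a change of over 2-fold and an adjusted p below 0.05 (edgeR's quasi-likelihood test, Benjamini-Hochberg over all genes). In the Odc set 6 of 8 members were called higher in TH1, where 10.2% of all genes tested were called higher, 5 in TH2 (11.5%), 6 in TH17 (8.35%) and 7 in Treg (13.9%). In the Dohh set 6 were called higher in TH1 (background 14.8%), 6 in TH2 (14.3%), 7 in TH17 (17.3%) and 6 in Treg (17.5%). The single member called lower was Ccl20 in TH17 of the Dohh set, where 14.1% of genes were called lower. The median log2 fold change of the members was 2.35 to 3.42 in the subsets of the Odc set and 3.53 to 5.96 in those of the Dohh set. These medians include fitted values of members with few or no counts in a group, such as Ccl20 in TH1 and TH2. The median of all genes was at most 0.07. Libraries of the 2 genotypes did not overlap in 19 of 32 member values for ODC KO, against 47.8% of the values of all genes tested, and in 28 of 32 for DOHH KO, against 60.4%. The labels number the libraries without naming the mice, so p-values measure the spread between libraries.

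**Figure D1:**
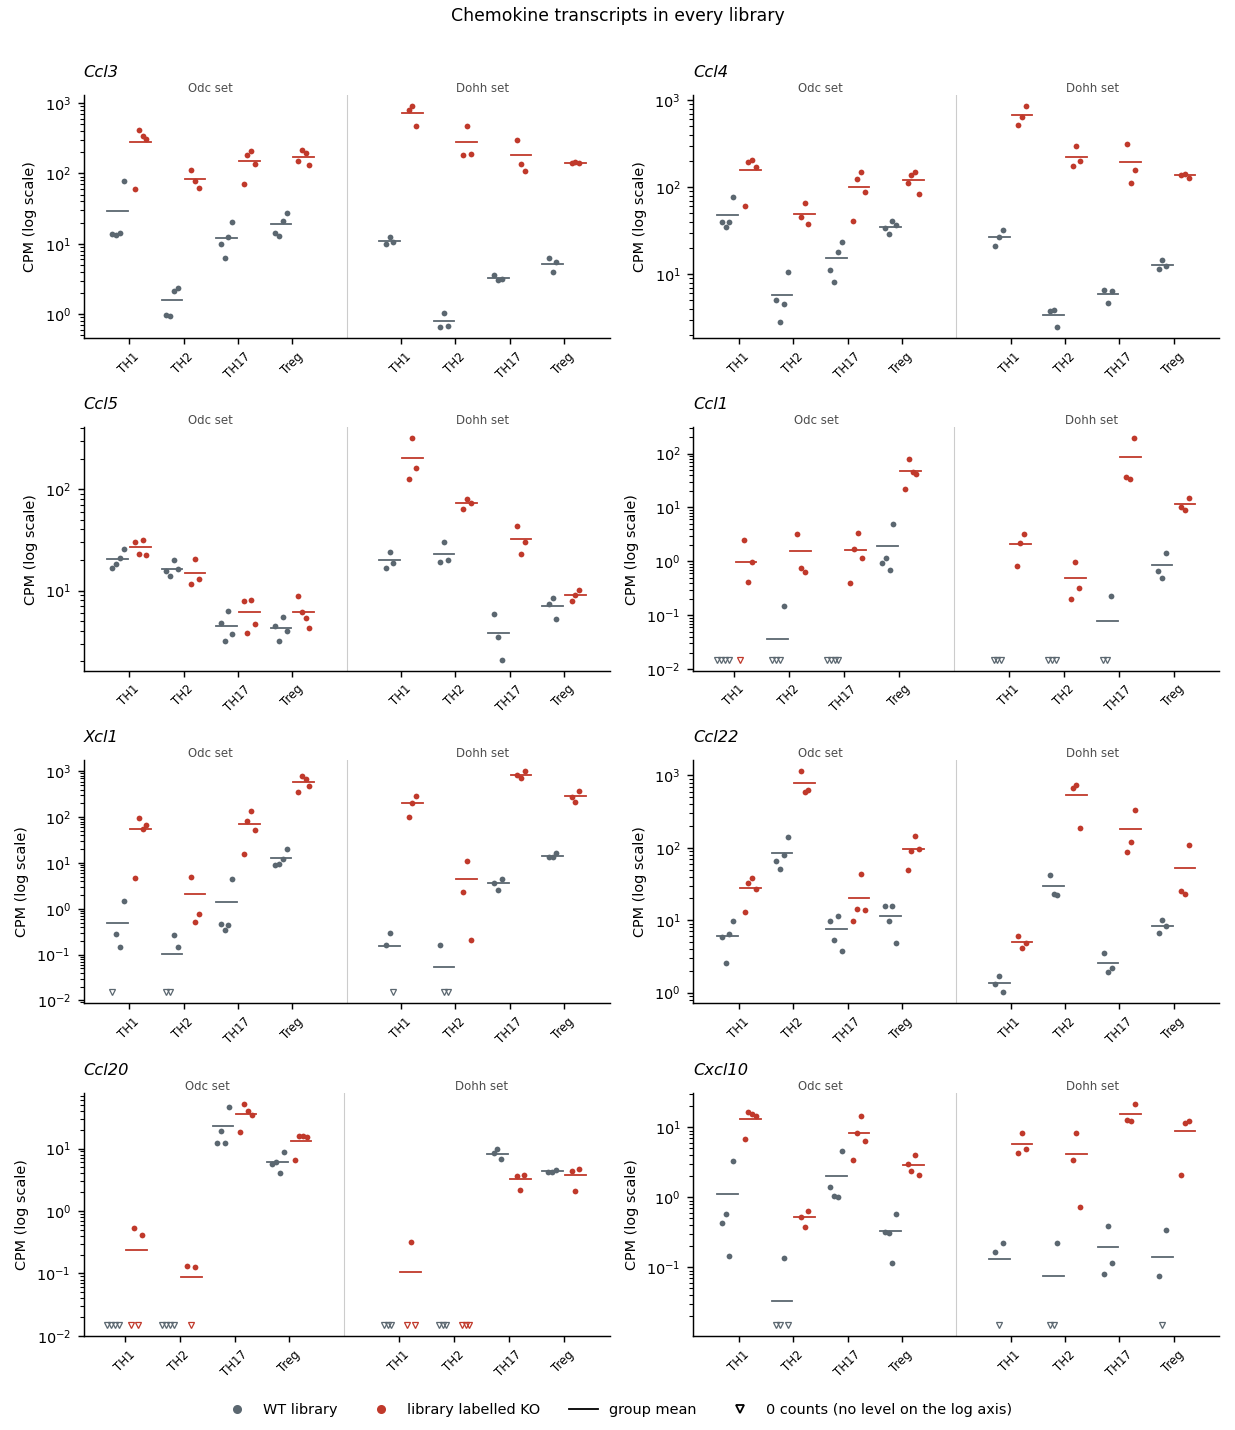
Level of each chemokine in every library, in CPM on a log axis, by subset and table. Points are libraries (grey WT, red labelled KO), lines are group means, and open triangles at the foot are libraries with 0 counts. Ccl3 in TH2 cells of the Dohh set ran from 0.659 to 1.06 CPM in WT and from 179.5 to 467 in libraries labelled DOHH KO, while Ccl5 overlapped in every subset of the Odc set.

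**Figure D2:**
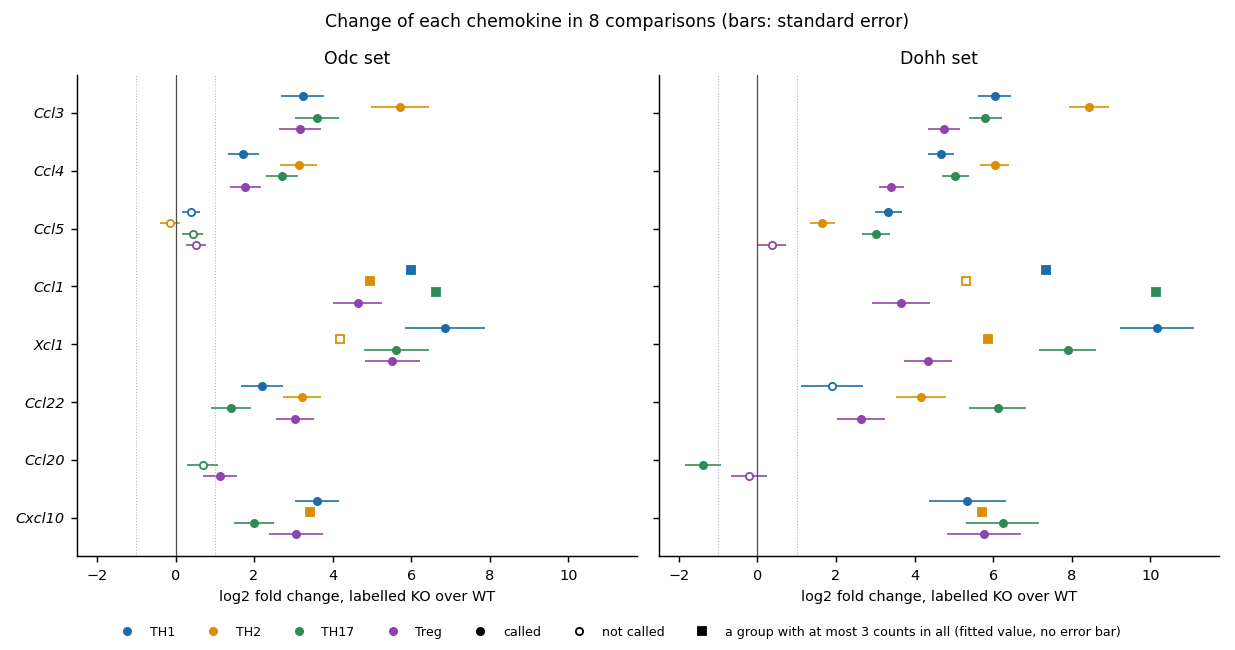
Log2 fold change of libraries labelled KO over WT, by member, subset and table. Bars are standard errors, filled symbols are called, and squares mark fitted values where a group held at most 3 counts in all, drawn with no error bar. Ccl20 in TH1 and TH2 is not drawn because WT libraries held 0 counts and libraries labelled KO too few for a fold, at most 4. Ccl3 and Ccl4 lie to the right of the 2-fold line in all 8 comparisons, and Ccl20 in TH17 of the Dohh set lies to the left of it.

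In these bulk samples more RNA per cell and more cells of a type cannot be told apart, and markers of other cells moved with the labels. The summed level of 10 basophil and mast cell markers was higher in libraries labelled KO in all 8 comparisons, without overlap. In the Odc set the sums were 27.9 to 188 CPM against 14.2 to 17.9 in TH1, 39.1 to 71.5 against 5.07 to 8.75 in TH2, 60.5 to 358 against 29.7 to 48.6 in TH17 and 79.5 to 223 against 25.3 to 43.6 in Treg. For DOHH KO they were 62 to 414 against 5.71 to 6.28 in TH1, 55.5 to 442 against 3.29 to 5.04 in TH2, 357 to 1384 against 16.2 to 24.2 in TH17 and 189 to 394 against 11.8 to 20.8 in Treg. Of this list 7 to 8 of 9 markers tested were called higher per subset under ODC KO and 9 to 10 of 10 under DOHH KO.

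The 12 myeloid and dendritic cell markers summed to 32.7 to 503 CPM over libraries labelled ODC KO against 17.4 to 57.2 over WT, with 2 to 6 of 8 tested called higher and 1 called lower in TH1 and in TH2. For DOHH KO the sums were 34.3 to 5029 against 24.9 to 46.3, with 4 to 9 of 10 called higher. Clec9a and Siglech were at 0 in every WT library of both tables. The summed level of 8 CD8 T or NK cell markers was also higher in libraries labelled KO in all 8 comparisons, without overlap. For ODC KO and WT it was 179 to 239 and 87.8 to 148 CPM in TH1, 34 to 40.3 and 20.8 to 33.2 in TH2, 263 to 373 and 146 to 183 in TH17 and 459 to 709 and 52.3 to 80.6 in Treg, with 2 to 7 of 8 markers called higher. For DOHH KO and WT it was 407 to 889 and 59.9 to 78.5 CPM in TH1, 128 to 206 and 29.5 to 32.7 in TH2, 724 to 859 and 102 to 130.2 in TH17 and 816 to 992 and 46.7 to 70.2 in Treg, with 4 to 6 of 7 called higher and 1 called lower in TH1 and in TH2. Within this list the 2 CD8 chains parted: Cd8a was called higher in 5 of 8 comparisons and lower in 0, and Cd8b1 higher in 0 and lower in 2. Eomes, given below as a transcription factor, is also on this list. CD8 T cells and NK cells are known sources of Ccl3, Ccl4, Ccl5 and Xcl1, and the negative selection used for these cultures is meant to remove them.

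The 8 B cell markers summed to more in libraries labelled ODC KO in all 4 subsets, without overlap: 298 to 1317 against 61.6 to 132 CPM in TH1, 626 to 941 against 113 to 259 in TH2, 118 to 177 against 94.7 to 115 in TH17 and 498 to 664 against 225 to 257 in Treg. Of these markers 7 of 8 were called higher in TH1, TH2 and Treg and 2 in TH17, where 1 was called lower. Under DOHH KO their sum was lower in TH1 (14.1 to 40.9 against 62.4 to 79.9 CPM), overlapped WT in TH2 and was higher in TH17 and Treg (376 to 452 against 254 to 267 and 568 to 849 against 284 to 299), with 0 to 3 of 7 called higher and 1 or 2 called lower per subset. In TH17 of the Dohh set the median log2 fold change of the 7 B cell markers tested was -0.47, although their sum was higher. The part of these other cells in the chemokine results was not tested. The 4 DOHH KO libraries of the highest myeloid sums were replicates 2 and 3 of TH17 and Treg, so that leaving them out left 1 DOHH KO library in each of these groups, assumed to vary like the other groups. Values without them are given below for single members, and Ccl20 in TH17 lost its call at a log2 fold change of -1.18 against -1.39 with all libraries (adjusted p = 0.164, edgeR).

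**Figure D3:**
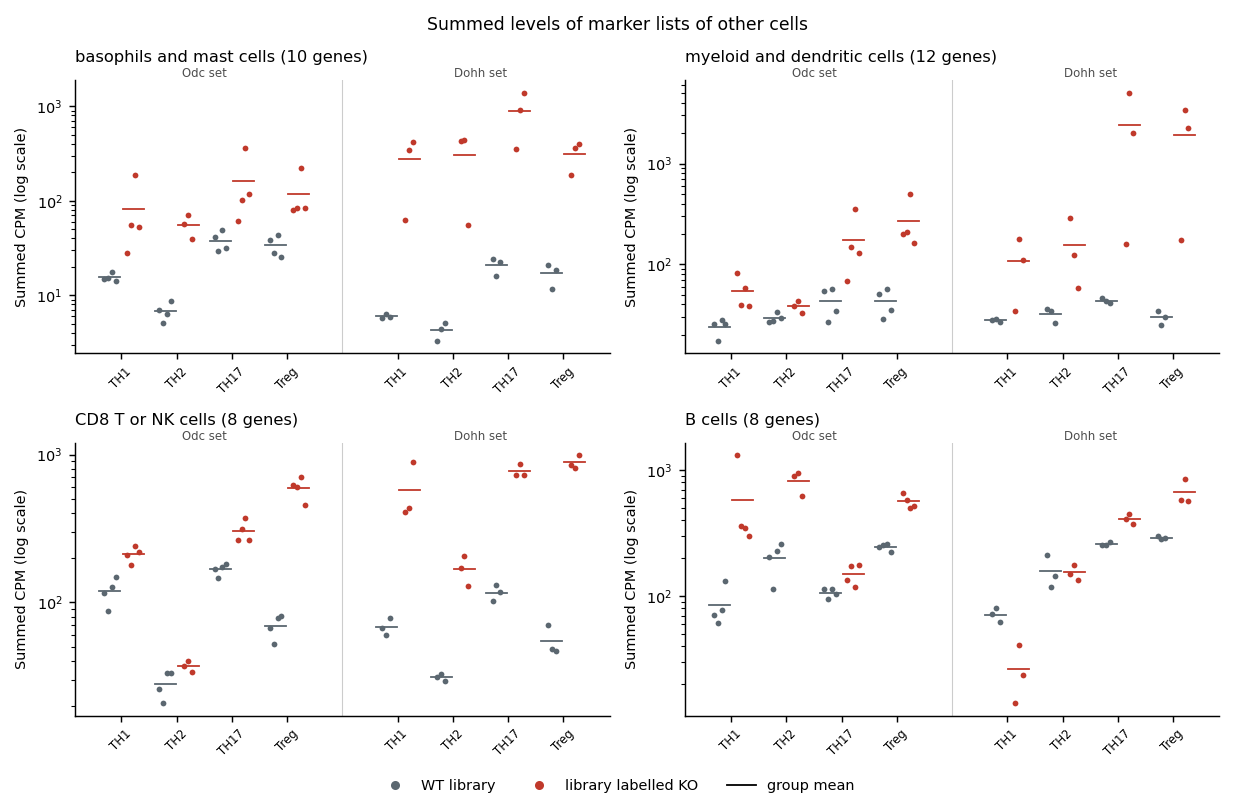
Summed CPM (log axis) of 4 marker lists of other cells in every library, by subset and table. Points are libraries and lines are group means. The basophil and mast cell sums of libraries labelled KO lie above all WT libraries of their subset, and the highest myeloid sum, 5029 CPM, is in TH17 labelled DOHH KO.

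Ccl3, a CCR1 ligand also known as MIP-1α, was called higher in all 8 comparisons. In TH2 cells of the Odc set its level was 0.979, 0.934, 2.14 and 2.33 CPM in WT replicates 1 to 4 and 111, 78.1 and 61.6 in ODC KO replicates 2 to 4. All 3 libraries labelled ODC KO lay far above the 4 WT libraries, which were near the floor. The difference was 52.7-fold, log2 fold change 5.72 ± 0.74 SE, adjusted p = 1.24e-06 (edgeR), rank 14 of 13839 genes. In TH1 cells WT replicates held 13.7, 13.4, 14.4 and 76.7 CPM and ODC KO replicates 59.3, 409, 337 and 306. WT replicate 4 was high and ODC KO replicate 1 was low, so the groups overlapped. The difference in TH1 was 9.43-fold (log2 3.24 ± 0.54 SE, edgeR adjusted p = 3.25e-05), and the log2 fold change was 4.33 without WT replicate 4 and 4.66 without WT replicate 4 and ODC KO replicate 1. In TH17 cells Ccl3 rose from 10.1, 6.32, 12.3 and 20.3 CPM in WT to 69.9, 185, 206 and 136 in libraries labelled ODC KO, 12.1-fold (log2 3.60; 4.19 without WT replicate 4 and ODC KO replicate 1). In Treg cells it rose from 14.4, 13.1, 21 and 27.6 to 151, 212, 192 and 129 CPM, 9.01-fold. The groups did not overlap in TH2, TH17 or Treg.

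Libraries labelled DOHH KO also held more Ccl3 than WT, with no overlap in any subset. In TH2 cells the WT level was 0.659, 1.06 and 0.673 CPM and the DOHH KO level 189, 179.5 and 467, a 348-fold difference (log2 8.44 ± 0.51 SE, edgeR adjusted p = 2.61e-10). Without DOHH KO replicate 3, the highest of them, the log2 fold change was 7.85. In TH1 cells WT held 9.85, 12.5 and 10.7 CPM and DOHH KO 792, 909.8 and 465, 65.7-fold (adjusted p = 1.13e-09, edgeR), the highest group mean of Ccl3 in the series. WT libraries of a group lay close together, and none came near a library labelled DOHH KO. In TH17 cells Ccl3 rose from 3.55, 3.02 and 3.12 to 299, 137 and 109 CPM (55.8-fold, log2 5.80), and the log2 fold change was 6.53 without the libraries of the highest myeloid sums. In Treg cells it rose from 6.25, 4.01 and 5.45 to 141, 145 and 141 CPM, 26.8-fold.

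Ccl4, the neighbour of Ccl3 and also known as MIP-1β, was also called higher in all 8 comparisons, by a smaller factor in each. In the Odc set WT TH1 cells held 39.7, 35.3, 39.3 and 76.4 CPM and libraries labelled ODC KO 61.3, 194, 205 and 171, where WT replicate 4 exceeded ODC KO replicate 1. The rise was 3.32-fold in TH1 (log2 1.73 ± 0.38 SE, edgeR adjusted p = 0.000507), 8.78-fold in TH2, 6.54-fold in TH17 and 3.44-fold in Treg. Without WT replicate 4 and ODC KO replicate 1 the log2 fold change in TH1 was 2.32. In TH2 cells, where WT libraries ran from 2.8 to 10.5 CPM, libraries labelled ODC KO ran from 38 to 66. Under DOHH KO the same pattern held: Ccl4 ran from 20.9 to 32.1 CPM in WT TH1 and from 521 to 862 in DOHH KO TH1, 25.5-fold. The rise was 65.7-fold in TH2, from 2.47 to 3.91 in WT to 175 to 299 CPM (log2 6.04 ± 0.36 SE, edgeR adjusted p = 2.38e-10). It was 32.9-fold in TH17 and 10.6-fold in Treg. No group of libraries labelled DOHH KO overlapped its WT group, and the log2 fold change in TH17 (5.04) was 5.74 without the libraries of the highest myeloid sums.

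In counts of Ccl3 and Ccl4 together, the share of Ccl3 restates the larger factor of Ccl3 for single libraries, and this measure was added after the values were seen. Its mean was higher in libraries labelled KO in 8 of 8 comparisons, and none of the 8 tests passed after adjustment. For TH1 of the Odc set the means were 32.5% ± 11.8 (SD, n = 4) in WT and 60.8% ± 8.11 (n = 4) in ODC KO, where the groups overlapped (exact two-sided permutation p = 0.0571). In TH2 the mean share was 22.9% in WT and 62.4% in libraries labelled ODC KO, with an exact permutation p of 0.0571, the smallest that 4 against 3 libraries allow. It was 44.5% and 60.5% in TH17 and 34.4% and 58.7% in Treg, each with an exact permutation p of 0.0286, the smallest for 4 against 4. In the Dohh set the means for WT and DOHH KO were 29.6% and 51.4% in TH1, 19.2% and 53.4% in TH2, 35.8% and 48.4% in TH17 and 29% and 51% in Treg. There 3 libraries against 3 cannot go below an exact permutation p of 0.1, which all 4 subsets gave. The Benjamini-Hochberg adjusted value over the 8 tests was 0.1 for each.

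**Figure D4:**
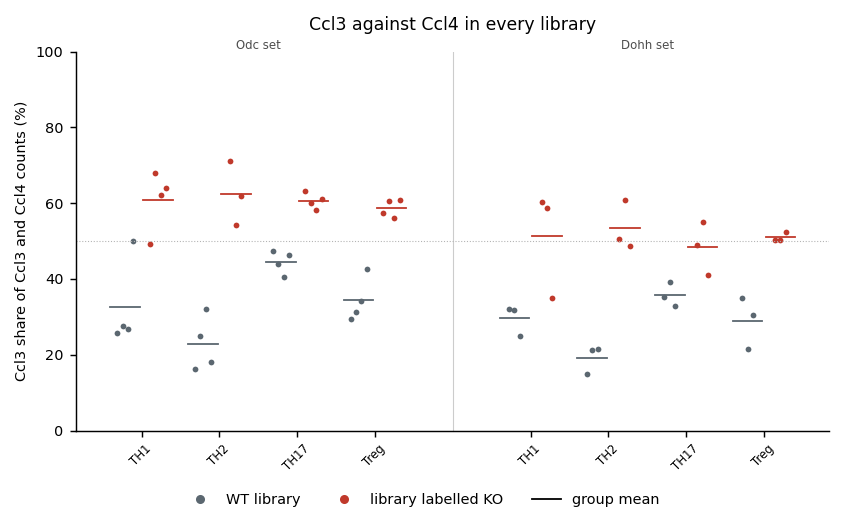
Share of Ccl3 in the counts of Ccl3 and Ccl4 in every library, in percent, by subset and table. Points are libraries and lines group means; the dotted line marks 50%. WT TH2 libraries of the Dohh set ran from 14.8 to 21.4% and their DOHH KO counterparts from 48.7 to 61%, and WT replicate 4 of TH1 in the Odc set stood at 50.1%.

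Ccl5 (RANTES), which draws T cells and monocytes, differed between the tables. In the Odc set it ran from 16.8 to 25.5 CPM in WT TH1 cells and from 22.5 to 31.5 in libraries labelled ODC KO. Its log2 fold change was 0.40 ± 0.23 SE in TH1, -0.13 ± 0.25 SE in TH2, 0.44 ± 0.27 SE in TH17 and 0.52 ± 0.27 SE in Treg. None of these passed, with adjusted p-values of 0.139, 0.666, 0.175 and 0.0904 (edgeR), and the groups overlapped in every subset. WT TH1 libraries of the Dohh set held 16.8, 24.1 and 18.8 CPM and libraries labelled DOHH KO 126, 316 and 160.5. This was a 10.1-fold rise (log2 3.33 ± 0.34 SE, edgeR adjusted p = 1.84e-07). Ccl5 rose 3.15-fold in TH2, from 18.9 to 30.2 to 63.8 to 80.0 CPM, and 8.14-fold in TH17, from 2.08 to 5.89 to 22.9 to 43.3 CPM. The groups did not overlap in these 3 subsets. In Treg cells it was 5.2 to 8.51 CPM in WT and 7.95 to 10.1 in DOHH KO, log2 0.37 ± 0.35 SE, adjusted p = 0.384 (edgeR).

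Xcl1 (lymphotactin), the ligand of XCR1 on dendritic cells, was called higher in 7 of 8 comparisons. WT Treg cells of the Odc set held 9.1, 9.51, 12.1 and 20.3 CPM and libraries labelled ODC KO 348, 798, 686 and 488. Every ODC KO library lay above every WT library, by 45.6-fold on average (log2 5.51 ± 0.70 SE, edgeR adjusted p = 5.63e-07). In TH1 cells WT held 0, 0.284, 0.145 and 1.48 CPM and libraries labelled ODC KO 4.68, 96, 56.6 and 68.9. The log2 fold change in TH1 was 6.86 ± 1.02 SE, rank 5 of 13839 genes, with adjusted p = 1.06e-05 (edgeR). WT replicate 4 carried most of the WT reads, and without it the value was 8.47. In TH17 cells Xcl1 rose from 0.464, 0.351, 0.452 and 4.41 to 15.5, 82.4, 134 and 51.4 CPM, 49.3-fold (log2 5.62; 7.33 without WT replicate 4). In TH2 cells, where WT libraries held 0 to 2 counts, the ratio of ODC KO to WT was 20.8 (95% counting interval 6.69 to 104) and was not called (edgeR adjusted p = 0.0896; DESeq2 0.00235). The ODC KO libraries of TH2 held 38, 4 and 6 counts in replicates 2, 3 and 4, so replicate 2 carried most of these reads, and the fitted log2 fold change of Xcl1 was 4.18 with it and 2.50 without it.

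TH17 cells held the most Xcl1 under DOHH KO, 817, 721 and 1015 CPM in libraries labelled DOHH KO against 3.71, 2.54 and 4.5 in WT. That was a 238-fold rise (log2 7.89 ± 0.73 SE, edgeR adjusted p = 1.05e-07), the groups standing well apart. In TH1 cells WT libraries held 0.166, 0.299 and 0 CPM, at or under the floor, and DOHH KO libraries 98.6, 207 and 295. The fitted log2 fold change was 10.17 ± 0.94 SE, rank 4 of 13897 genes (10.88 without WT replicate 2). In Treg cells Xcl1 rose from 13.7, 13.7 and 16.2 to 279, 219 and 382 CPM, 20.2-fold. TH2 again had the lowest level of Xcl1, and its ratio of DOHH KO to WT was 68.9 (95% counting interval 18.7 to 575). Libraries labelled DOHH KO of TH2 held 0.21, 2.34 and 11.1 CPM, so replicate 3 carried most reads, and the fitted log2 fold change of 5.87 was 4.06 without it and 8.48 without WT replicate 1, the only WT library with reads.

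Ccl1, the ligand of CCR8, was close to silent in WT TH1, TH2 and TH17 cells and measurable in WT Treg cells. In Treg cells of the Odc set WT libraries held 0.953, 1.14, 0.691 and 4.89 CPM and libraries labelled ODC KO 21.7, 79.9, 46 and 42.5. All 4 ODC KO libraries lay above all WT libraries, 24.9-fold (log2 4.64 ± 0.63 SE, edgeR adjusted p = 3.17e-06), and log2 5.65 without WT replicate 4. In TH17 cells the WT libraries held 0 counts and the ODC KO libraries 3, 13, 20 and 9 counts, at least 4.76-fold higher against the floor of 3 counts per library. That bound depends in part on ODC KO replicate 3, the highest, and is lower without it. In TH1 cells WT again held 0 counts and ODC KO 0, 19, 3 and 7, at least 2.25-fold higher. Most of these counts were in ODC KO replicate 2, so this bound rests mainly on it. The call in TH1 (edgeR adjusted p = 0.0196) was lost without ODC KO replicate 2 (0.0961) and, with every library kept, without the low-count filter (0.0615). In TH2 cells the ratio was 45.4 (95% counting interval 7.63 to 1844), from 1 WT count, and the call was lost without ODC KO replicate 2 (adjusted p = 0.0999, edgeR; fitted log2 fold change 4.96 with it, 3.87 without it and 6.58 without WT replicate 4).

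Under DOHH KO the highest Ccl1 was in TH17 rather than Treg cells. Libraries labelled DOHH KO of TH17 held 36.7, 34.3 and 191 CPM, and the WT libraries held 0, 0 and 2 counts. The ratio was 1110.3 (95% counting interval 307 to 9175), and replicate 3 was the highest by far. The fitted log2 fold change, which depends on the few WT counts, was 10.14 with all libraries and 8.87 without DOHH KO replicate 3. It was 9.49 without WT replicate 1 and 12.75 without WT replicate 3. In Treg cells Ccl1 rose from 0.677, 0.486 and 1.45 to 10.1, 9.09 and 15.2 CPM, 12.7-fold (edgeR adjusted p = 0.000645). Against 0 counts in WT, libraries labelled DOHH KO were at least 7.04-fold higher in TH1. In TH2 they held 3, 2 and 9 counts, of which only that of replicate 3 lay above the floor, so no fold is given, and the call was missed (edgeR adjusted p = 0.0635; DESeq2 0.00795).

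Ccl22, the CCR4 ligand known from dendritic cells and TH2 responses, was highest in TH2 cells of both genotypes. WT TH2 libraries of the Odc set held 66, 50.8, 80.2 and 143 CPM, and ODC KO replicates 2 to 4 held 1150.3, 589.9 and 632. The groups were separate and differed 9.31-fold (log2 3.22 ± 0.47 SE, edgeR adjusted p = 5.71e-06). In Treg cells Ccl22 rose 8.3-fold, from 15.6, 9.61, 15.8 and 4.78 to 48.9, 89.8, 147 and 95.1 CPM, and in TH1 cells 4.61-fold, from 2.56 to 9.62 to 13 to 38.7 CPM. In TH17 cells WT held 9.63, 5.27, 11.5 and 3.72 CPM and libraries labelled ODC KO 9.7, 14.2, 43.4 and 14.1. Replicate 3 stood far above the other ODC KO libraries, the lowest of which lay within the WT range. The 2.65-fold difference (edgeR adjusted p = 0.0262) fell to log2 0.74 without it and was not called then (adjusted p = 0.233). It was also not called when only these 2 groups were fitted (adjusted p = 0.061, edgeR), without the low-count filter (0.0701), without WT replicate 2 (0.0713) and without WT replicate 4 (0.077).

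WT TH2 libraries of the Dohh set held 42.6, 23.4 and 22.4 CPM of Ccl22 and libraries labelled DOHH KO 190.0, 661 and 737, 17.9-fold more (log2 4.16 ± 0.63 SE, edgeR adjusted p = 3.77e-05). TH17 cells rose by the largest factor, 69.1-fold, from 3.55, 1.95 and 2.19 to 88.8, 119.8 and 336 CPM. The log2 fold change of 6.11 in TH17 was 5.33 without DOHH KO replicate 3, whose myeloid sum was among the highest, and 5.09 without the 4 libraries of the highest myeloid sums. In Treg cells Ccl22 rose from 6.7, 10.2 and 8.27 to 25.2, 22.9 and 109 CPM. The log2 fold change there was 2.65 ± 0.61 SE, and 1.48 without replicate 3. In TH1 cells WT held 1.32, 1.69 and 1.01 CPM and DOHH KO 6.03, 4.1 and 4.85. These groups did not overlap, and the difference (log2 1.89 ± 0.79 SE) was not called (edgeR adjusted p = 0.0527; DESeq2 0.0104).

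Ccl20, the CCR6 ligand of TH17 cells, was called least often, higher in 1 comparison and lower in 1. It had 0 counts in every WT library of TH1 and TH2 and at most 4 counts in those labelled KO, so no fold is given there. In TH17 cells of the Odc set WT held 12.2, 19.3, 12.4 and 46.1 CPM and libraries labelled ODC KO 18.5, 52.1, 39.9 and 34.7. WT replicate 4 was higher than 3 of the 4 ODC KO libraries, and the log2 fold change was 0.69 ± 0.39 SE (edgeR adjusted p = 0.153). Without WT replicate 4 it was 1.31 and was called (adjusted p = 0.0048, edgeR). In Treg cells WT held 5.72, 5.99, 4.03 and 8.74 CPM and ODC KO 6.61, 15.9, 15.7 and 15.2, where replicate 1 lay within the WT range. The rise was 2.18-fold (log2 1.13 ± 0.43 SE, edgeR adjusted p = 0.0277). That call was lost without any of ODC KO replicates 2, 3 and 4 or WT replicates 1, 2 and 3, with adjusted p-values from 0.0543 to 0.0815, and without the low-count filter (adjusted p = 0.0887, edgeR). The log2 fold change was 0.97 to 1.12 in these 7 fits.

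With DOHH KO Ccl20 went down in TH17 cells. WT libraries held 8.48, 9.66 and 6.81 CPM and libraries labelled DOHH KO 3.65, 2.17 and 3.78, without overlap. The log2 fold change was -1.39 ± 0.46 SE (edgeR adjusted p = 0.0191). It was -1.16 without DOHH KO replicate 2 and -1.27 without WT replicate 2, and was not called in either case (adjusted p = 0.0755 and 0.0651, edgeR). In Treg cells the levels were 4.21, 4.13 and 4.6 CPM in WT and 4.31, 2.12 and 4.74 in DOHH KO, log2 -0.21 ± 0.46 SE (edgeR adjusted p = 0.711).

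Cxcl10 (IP-10), the CXCR3 ligand induced by interferons, was low in WT and was called higher in all 8 comparisons. In TH1 cells of the Odc set WT libraries held 0.433, 0.569, 0.145 and 3.26 CPM and libraries labelled ODC KO 6.8, 16.5, 15.8 and 14.4. WT replicate 4 was the highest WT library and ODC KO replicate 1 the lowest of its group, and the groups did not overlap. The rise was 12.1-fold (log2 3.60 ± 0.56 SE, edgeR adjusted p = 1.18e-05; log2 5.07 without WT replicate 4). In TH17 cells Cxcl10 ran from 1.02 to 4.65 CPM in WT to 3.46 to 14.6 in ODC KO, with overlap, and rose 4-fold (log2 2.00; 2.80 without WT replicate 4). In Treg cells it rose 8.38-fold. In TH2 cells 1 WT count set the ratio of 15.6 (95% counting interval 2.3 to 665), and the call (edgeR adjusted p = 0.0451) was lost with the replicate number as a block (adjusted p = 0.054), without the low-count filter (0.0938) and without any of 6 of the 7 libraries (0.0549 to 0.104). Without WT replicate 3, which held that count, the fitted log2 fold change moved from 3.44 to 5.05. WT libraries of the Dohh set held at most 4 counts of Cxcl10, and DOHH KO libraries held 4.29, 8.21 and 4.85 CPM in TH1, 0.734, 3.36 and 8.27 in TH2, 12.6, 12.5 and 21.8 in TH17 and 2.1, 11.6 and 12.5 in Treg. No DOHH KO library overlapped WT. The fitted log2 fold changes were 5.34 ± 0.99 SE in TH1, 6.24 ± 0.93 SE in TH17 and 5.76 ± 0.95 SE in Treg, and the ratio in TH2 was 62.6 (95% counting interval 16.9 to 523). They moved when a single library was left out, in TH2 from 5.71 to 4.71 without DOHH KO replicate 3, 5.08 without WT replicate 1 and 8.36 without WT replicate 3. They reached 7.16 in TH17 without WT replicate 2 and 7.16 in Treg without WT replicate 3, and fell to 3.67 in Treg without the libraries of the highest myeloid sums.

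The order of the WT subsets was alike in both tables for some members and not for others. Mean Ccl3 in the Odc set was 29.5 CPM in TH1, 19 in Treg, 12.3 in TH17 and 1.6 in TH2. Only the step from TH17 to TH2 was called (edgeR adjusted p = 0.00264), and TH1 over Treg turned to a log2 difference of -0.46 without WT replicate 4 of TH1. The Dohh set gave the same order, 11, 5.24, 3.23 and 0.796 CPM, and the steps from TH1 to Treg and from TH17 to TH2 were called (adjusted p = 0.0463 and 0.00754). The first of these 2 calls was lost with the replicate number as a block (0.0536), with genotype and number as a block (0.0711), without the low-count filter (0.115) and without any 1 of the 6 libraries (0.077 to 0.162, edgeR). Ccl4 followed the same order in both tables. Ccl5 was instead shared by TH1 and TH2, with 20.3 and 16.5 CPM in the Odc set, and lower in TH17 (4.46) and Treg (4.29). The difference between TH1 and TH2 was not called in either table (adjusted p = 0.403 and 0.762), and the step below them was (adjusted p = 7.38e-07 and 0.00187, edgeR).

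Ccl22 marked WT TH2 cells, 85 CPM against 11.4 in Treg, the next subset, in the Odc set (edgeR adjusted p = 1.62e-05) and 29.5 against 8.39 in the Dohh set (adjusted p = 0.0278). The call for Ccl22 in the Dohh set was lost without the low-count filter (0.0667), without TH2 WT replicate 1 (0.122) and without any 1 of the Treg WT libraries (0.0536 to 0.103). Xcl1 marked WT Treg cells, 12.7 CPM against 1.42 in TH17 in the Odc set (adjusted p = 0.0066) and 14.5 against 3.58 in the Dohh set (adjusted p = 0.0391). The latter call was lost with DESeq2 (0.0693), without the low-count filter (0.113) and without any 1 of the 6 libraries (0.0732 to 0.16). Ccl1 was also highest in Treg, called over TH2, the next subset, in the Odc set (adjusted p = 0.00437) and not over TH17 in the Dohh set (adjusted p = 0.133, but 0.0113 with the replicate number as a block, 0.0217 with genotype and number as a block and 0.0416 with DESeq2). Ccl20 was highest in TH17, 22.5 CPM against 6.12 in Treg in the Odc set (adjusted p = 0.00138), and 8.32 against 4.32 in the Dohh set, which was not called (adjusted p = 0.245). Cxcl10 had at most 4 counts in WT libraries of the Dohh set and was highest in TH17 of the Odc set (9 to 40 counts). Neighbouring subsets in its order were not called apart in either table, but TH17 over TH1 in the Odc set was called without WT replicate 4 of TH1 (log2 2.35, adjusted p = 0.00781, edgeR). Of all genes in the Odc set, the share called between 2 WT subsets was 8.87% for TH1 and TH2, 14.9% for TH1 and TH17, 19.4% for TH1 and Treg, 17.5% for TH2 and TH17, 21.1% for TH2 and Treg and 14.0% for TH17 and Treg. The shares of the same pairs, in that order, were 6.21, 12.4, 15.5, 13.7, 17.1 and 7.07% in WT libraries of the Dohh set.

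In libraries labelled KO the order was kept for some members and changed for others. Ccl3 was highest in TH1 in both tables. Under ODC KO its order was that of WT, and TH1 was not called over Treg (log2 0.70, adjusted p = 0.277, edgeR). Under DOHH KO the lower order was turned over, with TH2 second, then TH17 (182 CPM) and Treg (142), and of the steps between neighbours in this order only TH1 over TH2 was called (722 and 279 CPM, edgeR adjusted p = 0.0106). Ccl22 stayed highest in TH2 with 791 CPM under ODC KO and 529.6 under DOHH KO. Xcl1 and Ccl1 stayed highest in Treg under ODC KO (580.0 and 47.5 CPM). Under DOHH KO both were highest in TH17, for Ccl1 with 87.3 CPM against 11.4 in Treg (adjusted p = 0.00915) and for Xcl1 with 851 against 294, which was not called (adjusted p = 0.0748, edgeR). The Ccl1 mean in TH17 was raised by replicate 3, at 191 CPM, whose myeloid sum was among the highest. The lowest of these libraries held 34.3 CPM, against at most 15.2 in Treg. Orders within libraries labelled KO were not run under the alternatives used for WT. Among all genes, 6.90% were called between TH1 and TH2 labelled DOHH KO and 4.20% between TH17 and Treg.

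Whether the effect of the label differed between subsets was tested as an interaction over all genes. In the Odc set none of the 6 members that could be tested passed, where 34.8% of all genes did. The adjusted p-values were 0.119 for Ccl3, 0.127 for Ccl4, 0.386 for Ccl5, 0.117 for Ccl22, 0.859 for Xcl1 and 0.312 for Cxcl10 (edgeR). This fit had no block for same-numbered libraries of a genotype, which were correlated across subsets. With the genotype and replicate number as a block Ccl3, Ccl4 and Cxcl10 passed (adjusted p = 0.0493, 0.0195 and 0.0189, edgeR). The share of all genes passing with that block is not given, so the absence of calls depends on the model. Without WT replicate 4 and ODC KO replicate 1 the adjusted p-values were 0.00336, 0.00555 and 0.0235 for Ccl3, Ccl4 and Cxcl10 and 0.0384 for Ccl22, which is no independent support, since these libraries were chosen from the same members. In the Dohh set 5 of 6 passed (17.9% of all genes): Ccl3, Ccl4, Ccl5, Ccl22 and Xcl1, with adjusted p-values of 0.00158, 0.00142, 0.000404, 0.0181 and 0.00387. Cxcl10 did not (0.979). Ccl3 and Ccl4 rose by the largest factor in TH2, where WT levels were lowest, and by the smallest in Treg. Ccl5 rose most in TH1 and TH17, and Xcl1 less in Treg than in TH17. Ccl1 and Ccl20 had groups with no counts, so that their interaction could not be tested. The call for Ccl22 was lost without the low-count filter (adjusted p = 0.0543, edgeR), and that for Xcl1 without the 4 libraries of the highest myeloid sums (adjusted p = 0.0661).

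Levels were compared between members after division by exon length, as RPKM (CPM per 1000 exon bases). The lengths are those of the GENCODE models, such as 2369 bases in 12 blocks for Ccl1 and 2252 bases in 1 block for Cxcl10. Since the annotation used for the counting is not given, the RPKM and shares depend on these models. Summed over the 8 members, the RPKM of the Odc set rose from a mean of 136 in WT to 757 in ODC KO in TH1, from 64.7 to 545 in TH2, from 66.4 to 527 in TH17 and from 117 to 1593 in Treg. For DOHH KO it rose from 76.2 to 2562 in TH1, from 43 to 1018 in TH2, from 31 to 2315 in TH17 and from 68.6 to 997 in Treg. The member with the largest share differed between WT and libraries labelled KO in 5 of 8 comparisons. It was Ccl22 in both genotypes in TH2 of the Odc set, Ccl4 in TH1 of the Dohh set (52.5% and 39.9%) and Xcl1 in Treg of the Dohh set (40.5% and 55.6%). Xcl1 grew from 20.3% of the sum in WT Treg (16.7 to 26.6%) to 68.8% in ODC KO (61.8 to 72.6%). In TH17 of the Dohh set Xcl1 grew from 22.1% (17.7 to 28.4%) to 70.8% (61.7 to 75.6%). Neither pair of ranges overlapped. Ccl4 was the largest part of WT TH1 in both tables (55.9% and 52.5%), while Ccl3 was the larger of these neighbours in TH1 labelled ODC KO (45.5% against 33.8%). Ccl22 made up 55.2% of WT TH2 and 61.5% of ODC KO TH2. Ccl5 was 55.8% of WT TH2 in the Dohh set and 8.04% of DOHH KO TH2, although its own level rose. Ccl20 was 19.2% of WT TH17 and 0.096% of DOHH KO TH17.

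**Figure D5:**
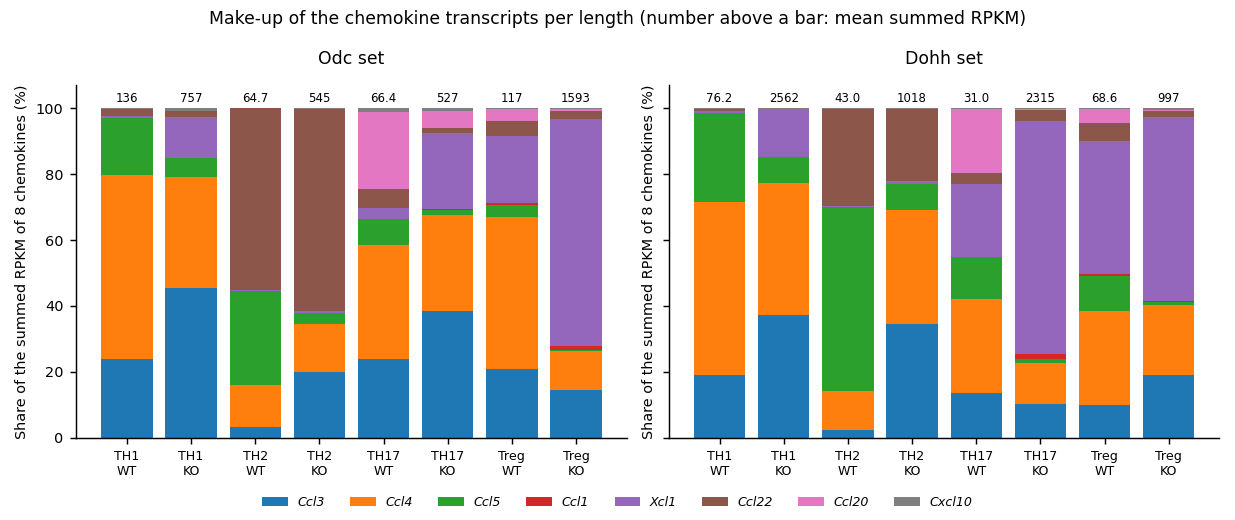
Make-up of the 8 chemokines by summed RPKM in each group, as mean shares in percent, with the mean summed RPKM above each bar. Xcl1 takes 68.8% of Treg labelled ODC KO and 70.8% of TH17 labelled DOHH KO, and Ccl22 takes 61.5% of TH2 labelled ODC KO.

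The mean effect over the 4 subsets was compared between the tables for the 6 members without an empty group. It was smaller in the Odc than in the Dohh set for Ccl3 by a log2 difference of −2.35 ± 0.42 (SE; mean log2 fold changes 3.88 and 6.23), for Ccl4 by −2.47 ± 0.28 (2.29 and 4.76), for Ccl5 by −1.81 ± 0.21 (0.26 and 2.07) and for Ccl22 by −1.26 ± 0.43 (2.42 and 3.68). The adjusted p-values were 1.3e-05, 1.38e-09, 1.87e-09 and 0.016 (edgeR), and 44.3% of all genes passed this test. Xcl1 (−1.53 ± 1.29, adjusted p = 0.36) and Cxcl10 (−2.74 ± 1.24, adjusted p = 0.0691) did not pass. Same-numbered libraries of a genotype were correlated across subsets. This test was not run with a block for them, so its standard errors may be too small. The deletion and the table cannot be told apart here, and 275 genes with at least 500 counts in the Odc set had at most 5 of them in the other, and 13 the other way round, so the 2 files may not have been counted alike.

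Of 30 further chemokine ligands 14 were tested in the Odc set and 15 in the Dohh set, and 5 to 9 were called higher per subset in the first and 6 to 13 in the second, with at most 1 called lower, where 8.35 to 13.9% and 14.3 to 17.5% of all genes tested were called higher. They were not tested against the members. Ccl6 and Ccl9, CCR1 ligands known from myeloid cells, were called higher in 8 of 8 comparisons, with log2 fold changes of 1.81 to 7.98 and 1.59 to 6.43. Pf4 (Cxcl4), a platelet and megakaryocyte product, was called higher in 8 of 8 (3.07 to 10.19), and Ppbp (Cxcl7), from the same cells, in 6. Both groups held enough counts for a fold in 5 of 8 comparisons for Pf4 and in 7 of 8 for Ccl6. The other values in their ranges are fitted ones that depend on few or no counts. Cxcl9, like Cxcl10 a CXCR3 ligand induced by IFN-γ, was called higher in 6. Its mean level reached 12 CPM in DOHH KO Treg, against 0 counts in WT. Cxcl3, a neutrophil attractant, was called higher in 4 comparisons and Cxcl5 in 3, and Ccl7 in 1. Ifng, the inducer of Cxcl9 and Cxcl10, was called higher in 8 of 8, with means of 930.0 CPM in WT and 2059 in ODC KO for TH1, and 2.98 in WT and 766 in DOHH KO for TH2.

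The receptors of the members were called in both directions. Of 8 receptors 7 were tested, and 0 to 3 per subset were called higher and 0 to 2 lower in the Odc set, against 1 to 4 higher and 2 to 4 lower in the Dohh set. Of all genes 8.35 to 17.5% were called higher per comparison and 7.21 to 15.2% lower, so that a single receptor of 7 is near the background. Ccr1, which binds Ccl3 and Ccl5, was called higher in 5 comparisons, for example from 0.921 to 48 CPM in TH17 of the Dohh set. Ccr6, the receptor of Ccl20, was called lower in TH1, TH17 and Treg of the Dohh set, from 41.3 to 0.739 CPM in Treg, and higher in TH1 of the Odc set. Xcr1, the receptor of Xcl1, was under the count filter in both tables.

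Among 18 transcription factors known upstream of these genes, 1 or 2 were called higher per comparison and 0 to 5 lower. The share called higher was below that of all genes in 7 of 8 comparisons, the exception being TH17 of the Odc set. The share called lower was above that of all genes in 5 of 8, and at most 5 of 18 against 15.2% of all genes in Treg of the Dohh set. Eomes, which activates effector genes in T and NK cells, was called higher in 8 of 8 comparisons (log2 fold changes 1.97 to 4.44). Tbx21 (T-bet), the TH1 regulator, was called higher in 7 of 8, from 88.7 to 376 CPM in TH1 of the Dohh set. Irf4, which activated T cells induce, was called lower in 5 comparisons and Stat4, which signals for IL-12, in 4. Of the NF-kB family, Nfkb1, Nfkb2 and Rela were called in no comparison, Rel lower in 2 and Relb lower in 1, where 7.21 to 15.2% of all genes were called lower per comparison.

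The genes whose levels ran most like each member were sought as the lower of the Pearson correlations of log2 CPM over the 31 libraries of the Odc set and the 24 of the Dohh set, among 12924 genes. Libraries share subsets and labels, so the values describe likeness only. Ccl3 was most like Ccl4 (0.96), then Serpina3f (0.92) and Abracl (0.91), and Ccl4 most like Ccl3, Abracl (0.90) and Serpina3f (0.89). Ccl1 was most like Ly6g5b (0.87), Xcl1 (0.86) and Pdcd1 (0.86), which encodes the inhibitory receptor PD-1. Xcl1 was most like Tacc1 (0.89), Emp3 (0.88) and Rgs8 (0.87). Ccl5 was most like Mt3, Serpinb9b and Me1 (0.87, 0.87 and 0.86), Ccl22 like Marcks, Htr7 and Akr1c13 (0.89, 0.89 and 0.88), and Cxcl10 like Scimp, Brms1 and Adgrg5 (0.88, 0.86 and 0.86). Ccl20 was most like Gja5 (0.95), Golm1 (0.93) and Nt5e (0.92), which encodes the ectonucleotidase CD73. Among the members themselves Ccl20 and Ccl5 were the least alike, with correlations of −0.88 over the Odc libraries and −0.69 over the Dohh libraries.

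Spread between libraries of a group differed between members. The ratio of the highest to the lowest library had a median of 1.68 for Ccl5, 1.72 for Ccl4 and 2.03 for Ccl3, over all 16 groups. It was 2.64 for Xcl1 and 4.40 for Cxcl10 over the 12 groups without a library at 0, and 4.68 for Ccl1 over 9 such groups. The largest ratio within a group was 53.05, for Xcl1 in the TH2 libraries labelled DOHH KO.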

How the data were processed

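RNA was measured by poly(A) RNA-seq (TruSeq stranded mRNA, Illumina) in 55 libraries. The deposited values are raw counts of reads per gene, which the authors made with STAR and featureCounts on mm10. The submitters' processing notes also name DESeq2 and deepTools. Versions, annotation and strand setting are not given in the sources used here. The sample TH2 ODC KO replicate 1 was not analysed here, and some genes counted in the lists of receptors and transcription factors are not reported here. By identifier, 47310 of 47937 listed genes matched GENCODE vM21.

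The tables were fitted separately. Genes passing filterByExpr (13839 in the Odc set, 13897 in the Dohh set) were scaled by TMM and tested with edgeR 4.0.16 (robust quasi-likelihood, 8 groups, R 4.3.3). A gene was called at over 2-fold and a Benjamini-Hochberg adjusted p below 0.05 over all genes tested, and standard errors came from the log2 fold change and F. CPM use TMM-scaled totals, and RPKM divide them by exon length. A group at 0 was set to a floor of 3 counts per library. Where a group held 1 to 3 counts in all, the ratio of counts with a 95% counting interval is given. Subset pairs and the interaction of label and subset used the same model. The difference of the tables' mean effects was tested over 14850 genes, more than passed the filter in either table, so it came from a further fit. The share of Ccl3 was tested by exact permutation.

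All 8 members are named. Of the further chemokine ligands, genes called in at least 6 of 8 comparisons in 1 direction are named with up to 3 more of the largest mean change. The same rule was used for receptors and transcription factors, less the genes not reported here. Markers of other cells are given mainly as sums and counts, and many that met the rule are not named. For each member the 3 genes most like it are named. Fold examples from Ifng, Cd4 and Cd3e, the counts for NF-kB members, and WT subset markers were named after their values were seen. The members and lists were chosen with earlier results of these data known. Scripts were tested on simulated data. Alternatives were DESeq2 1.42.0, size factors of the RLE method, no low-count filter, only the 2 groups compared, the replicate number as a block, and leaving out each library in turn, and, added after seeing the data, leaving out the libraries that stood apart and a block for label and number. Replicate numbers did not pair WT with labelled KO libraries: correlations of same-numbered deviations were −0.09 to 0.20 in the Odc set and −0.03 to 0.14 in the Dohh set. Within a genotype, the mean correlation of same-numbered libraries across subsets was 0.18 to 0.45 in the Odc set and 0.063 to 0.36 in the Dohh set.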

Additional observations from a re-analysis of the deposited data

Results flagged for a closer look

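In groups of 4 libraries, all in the Odc set, 9 values lay so far from the other libraries of their group that the gap exceeded Dixon's critical value for 4 samples. Chance flags about 1 in 20 groups, and 56 were examined. Of these values 7 belonged to WT replicate 4, which was the highest of its group each time. In TH1 it held 76.7 CPM of Ccl3 (the others 13.4 to 14.4), 76.4 CPM of Ccl4 (35.3 to 39.7), 3.26 CPM of Cxcl10 (0.145 to 0.569) and a Ccl3 share of 50.1% (25.7 to 27.5%). In TH17 it held 4.41 CPM of Xcl1 (0.351 to 0.464) and 4.65 CPM of Cxcl10 (1.02 to 1.39), and in Treg 4.89 CPM of Ccl1 (0.691 to 1.14). The other values were Ccl20 in ODC KO replicate 1 of Treg, 6.61 CPM against 15.2 to 15.9, and Ccl22 in ODC KO replicate 3 of TH17, 43.4 CPM against 9.70 to 14.2.

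The effect of the label differed between subsets in the Dohh set for Ccl3, Ccl4, Ccl5, Ccl22 and Xcl1, with interaction adjusted p-values of 0.00158, 0.00142, 0.000404, 0.0181 and 0.00387 (edgeR). The mean effect differed between the tables for Ccl3, Ccl4, Ccl5 and Ccl22, by log2 differences of −2.35, −2.47, −1.81 and −1.26 (Odc minus Dohh). The deletion and the table cannot be told apart in these differences.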

How the results depend on the processing

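The number of members called fell from 5 to 3 in TH2 of the Odc set when only the 2 groups compared were fitted. Leaving out 1 library at a time, the number called was 3 to 5 in TH2 of the Odc set, 3 being without ODC KO replicate 2, which left 2 libraries in that group. In the other comparisons the number called stayed within 1.5 times its value under each alternative run. Among single values of members against WT, 725 kept their direction and their side of the threshold, 26 lost the call, 11 gained one and 2 turned sign, both uncalled: Ccl20 in Treg of the Dohh set, 0.013 without DOHH KO replicate 2 and otherwise down to −0.47, and Ccl5 in TH2 of the Odc set, 0.017 without ODC KO replicate 2 and otherwise down to −0.41. Orders of WT subsets that turned were Ccl3 in the Odc set, TH1 over Treg (−0.46 without TH1 WT replicate 4 and up to 0.88, and −0.22 without WT replicate 4 and ODC KO replicate 1), Ccl5 in the Dohh set, TH2 over TH1 (−0.0498 without TH2 WT replicate 2 and up to 0.36), and Cxcl10 in the Dohh set, TH17 over Treg (−0.60 without TH17 WT replicate 2, −0.03 and −0.08 without Treg WT replicates 1 and 2, up to 1.80 without Treg WT replicate 3). The cause was not tested. With the replicate number as a block, Cxcl10 in TH2 of the Odc set lost its call (log2 3.23, edgeR adjusted p = 0.054), Ccl22 in TH1 (1.88) and Ccl1 in TH2 (5.22) of the Dohh set gained one, and the block changed no other call against WT. Of the same-numbered pairs 7 of 15 in the Odc set and 1 of 12 in the Dohh set had a correlation over 0.1, so the numbers were not taken to pair libraries. Depth limits Ccl20 in TH1 and TH2, and in WT cells Ccl1 outside Treg, Xcl1 in TH1 and TH2 and Cxcl10 in TH2 and in the Dohh set, where libraries held few or no counts.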
